A study of Mus musculus with 23 samples.

Results

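Of 23 hippocampus libraries, 7 carried a high level of transthyretin mRNA (Ttr) and 16 a low one, and the comparison of these 7 with the other 16 across all genes is described here. The members were chosen by their measured Ttr level: a library was placed in the rich set when its Ttr reads reached 500 counts per 1000000 reads assigned to listed genes (CPM), and in the poor set otherwise. All mice were of the FCG model bred on C57Bl/6J and were about 12 months old. In this model Sry, the gene that directs a gonad to become a testis, sits on an autosome and not on the Y, so that gonads and sex chromosomes are inherited apart. Groups are named by both: XXF (ovaries, n = 5) and XXM (testes, n = 6) carry XX, while XYF (ovaries, n = 6) and XYM (testes, n = 6) carry XY. Each library was made from the hippocampus of a separate animal, the labels name no treatment, and pups had been caged by the appearance of their genitalia.

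The choroid plexus is a fringe of tissue in the brain ventricles, made of a cuboidal epithelium over a vascular stroma with fibroblasts, macrophages and leaky capillaries. Its epithelium pumps ions and water into the ventricle to make cerebrospinal fluid, and it secretes transthyretin, a carrier of thyroid hormone and retinol. In the lateral ventricle the plexus is attached along the fimbria, at the edge of the hippocampus. Few other brain cells make transthyretin, which is why Ttr is used as its marker.

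Ttr set the 2 classes of library, so its own values are given without a test. In the rich libraries Ttr was 1647 CPM in XXM replicate 5, 1696 CPM in XXF replicate 1, 1828 CPM in XXM replicate 1 and 2014 CPM in XXM replicate 3. It was 2224 CPM in XXM replicate 4, 2414 CPM in XYM replicate 1 and 2957 CPM in XYF replicate 5. Poor libraries ranged from 19.1 to 149.9 CPM with a median of 63.8 CPM. The highest poor library was XYM replicate 3 at 149.9 CPM, followed by XYF replicate 4 at 148.7 CPM and XXF replicate 2 at 118.8 CPM. No library lay between 149.9 and 1647 CPM, so thresholds of 250 and 1000 CPM gave the same split. Every group held at least 1 rich library. There was 1 of 5 in XXF, 4 of 6 in XXM, 1 of 6 in XYF and 1 of 6 in XYM. By sex chromosomes that was 5 of 11 XX and 2 of 12 XY libraries, and by gonad 2 of 11 with ovaries and 5 of 12 with testes.

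**Figure D1:**
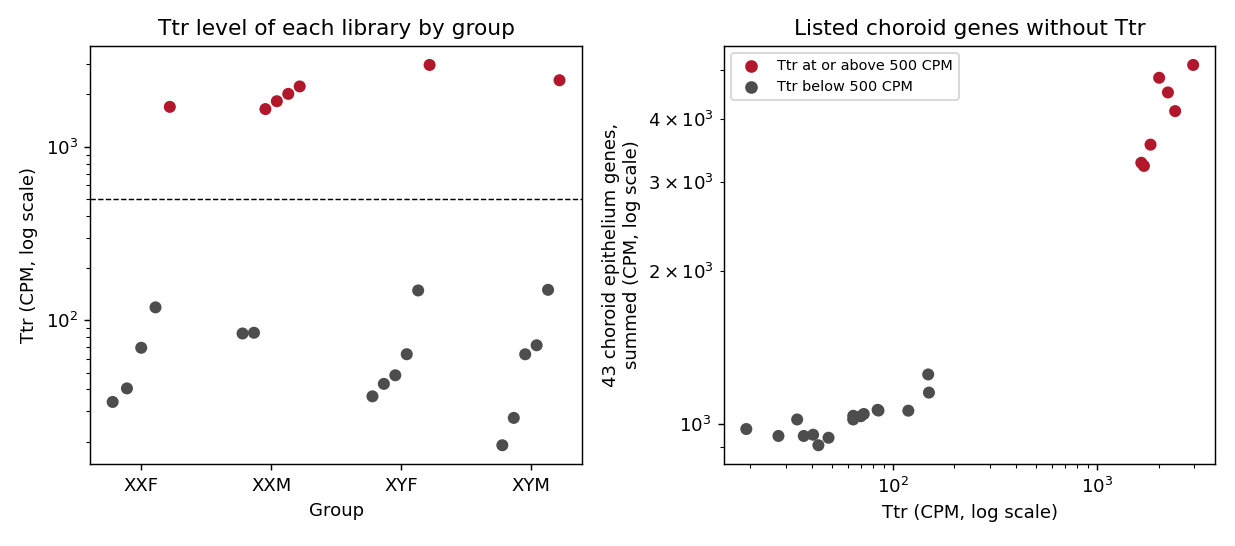
Left, Ttr level of each library in CPM on a log axis, by group, with points within a group spread in order of level and the dashed line at 500 CPM. Right, summed CPM of 43 choroid epithelium genes without Ttr against Ttr, both on log axes; the 7 rich libraries (red) lie between 3231 and 5112 CPM and the 16 poor libraries (grey) between 908 and 1252 CPM.

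Total counts per library were 15006900 to 29681200 in the rich class, within the range of 10257800 to 36078200 in the poor class. Scaling factors of the libraries lay between 0.977 and 1.03. A poor library, XYF replicate 4, stood apart from the other poor ones and is described with the results it touches. It had 96.7 CPM of Xist, the RNA that silences an X chromosome, against at most 2.91 CPM in the other XY libraries. The classes were made from a measured level and not assigned by the study. A p-value below therefore describes how a gene varies with Ttr between animals, and genes made by the same epithelial cells as Ttr are not independent of it. In bulk tissue, more cells of a type and more RNA per cell cannot be told apart.

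Of 13765 genes other than Ttr, 433 were higher in the rich libraries (3.15%) and 7 were lower (0.0509%) at an adjusted p under 0.05 in edgeR's quasi-likelihood test with the 4 groups as covariate. That is 3.2% in either direction, and 1857 genes had an unadjusted p under 0.05. The median log2 difference of all genes was -0.01. Among the 433, 33 differed by over 4-fold, 62 by 2- to 4-fold and 338 by at most 2-fold. In 126 genes (0.915% of those tested) every rich library lay above every poor one, and all 126 were among the 433. No gene had every rich library below every poor one (0%). Leading the list were genes of the choroid epithelium, and the large differences ran upward only.

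Of the 57 genes listed as choroid epithelium, 43 were measured. Of these, 41 were higher in the rich libraries with none lower, against 3.15% of all genes higher. The lists were chosen with earlier results of these data known, so these counts are a description. Their median log2 difference was 2.18, against -0.01 for all genes. In 35 of the 43 every rich library lay above every poor one, against 0.915% of all genes. Summed over the 43, the level was 3231 to 5112 CPM in rich libraries (median 4144) and 908 to 1252 CPM in poor ones (median 1028). Genes entered the deposited table only with a count of at least 20 in every library of some group, and no group was rich throughout. The 43 are therefore the members that passed this filter, and 14 others, Kcne2, Cldn2 and Slc4a5 among them, were not analysed here.

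Otx2, a homeobox transcription factor that directs and maintains choroid plexus identity, was among the genes that rose, and its core binding word TAATCC was searched on both strands (reverse GGATTA) in RefSeq promoters. The RefSeq windows (GRCm38.p6) run from 250 bases before to 50 after a start site, and the first listed window of each gene was used. Of 10174 tested genes with a window, 544 (5.35%) held the word, as did 21 of 321 genes called higher (6.54%). Of 31 choroid epithelium genes with a window, 5 (16.1%) held it, namely Ace, Mfrp, Abca4, Vat1l and Car14. These shares are descriptions, and a match is not evidence of binding. The 250 bases before the start sites of the 4 of these genes on the plus strand are shown 5′ to 3′, with the matched word in capitals. Whether Otx2 acts on these genes was not tested. In Ace (chr11:105967698-105967947) the word starts 27 bases before the start site. Mfrp (chr9:44101520-44101769), whose window is also that of C1qtnf5, carries it 134 bases before the start site, Abca4 (chr3:122044210-122044459) 58 bases before and Vat1l (chr8:114205390-114205639) 79 bases before.
Ace: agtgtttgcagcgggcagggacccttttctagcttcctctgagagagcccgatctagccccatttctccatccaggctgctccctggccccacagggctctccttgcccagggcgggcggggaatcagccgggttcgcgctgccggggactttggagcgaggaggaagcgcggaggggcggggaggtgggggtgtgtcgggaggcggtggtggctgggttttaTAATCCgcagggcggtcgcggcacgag
Mfrp and C1qtnf5: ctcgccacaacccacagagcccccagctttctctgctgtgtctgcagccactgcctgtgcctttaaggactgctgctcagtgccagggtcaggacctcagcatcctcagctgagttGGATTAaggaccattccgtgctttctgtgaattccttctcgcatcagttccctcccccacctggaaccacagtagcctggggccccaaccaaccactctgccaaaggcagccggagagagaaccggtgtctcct
Abca4: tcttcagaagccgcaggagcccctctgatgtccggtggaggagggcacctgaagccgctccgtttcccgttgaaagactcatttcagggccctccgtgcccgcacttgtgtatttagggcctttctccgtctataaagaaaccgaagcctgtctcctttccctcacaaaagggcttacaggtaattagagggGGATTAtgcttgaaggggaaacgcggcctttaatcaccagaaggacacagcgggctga
Vat1l: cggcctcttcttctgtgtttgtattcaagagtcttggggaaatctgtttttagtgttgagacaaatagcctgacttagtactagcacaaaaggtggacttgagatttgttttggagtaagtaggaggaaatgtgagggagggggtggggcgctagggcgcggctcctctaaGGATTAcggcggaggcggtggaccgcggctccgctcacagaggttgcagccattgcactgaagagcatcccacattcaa

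Secreted proteins and enzymes of the epithelium gave the highest list median. All 16 measured members were higher in the rich libraries, with a median log2 difference of 2.48. Enpp2 (gene 18606, chromosome 15, 54838898 to 54920146), which encodes autotaxin, the enzyme that makes lysophosphatidic acid, was at 1385, 1917 and 2457 CPM (lowest, median and highest) in rich libraries. In poor libraries Enpp2 was at 217, 264 and 358 CPM. The classes did not overlap, and the log2 difference was 2.78 ± 0.12 (SE, edgeR adjusted p = 7.68e-13, 7 against 16 libraries). Ace (gene 11421, chromosome 11, 105967945 to 105989964), the angiotensin-converting enzyme of the epithelium's apical face, was at 60.5, 84.7 and 110.7 CPM in rich and 11.5, 14.4 and 18.3 CPM in poor libraries. Its log2 difference was 2.55 ± 0.10 (SE, edgeR adjusted p = 9.35e-15), the smallest p of any gene other than Ttr. Sostdc1, a secreted inhibitor of BMP and Wnt signals, was at 14.1 to 31.7 CPM in rich and 1.21 to 3.84 CPM in poor libraries, a log2 difference of 3.06 ± 0.16 (SE). The gene 1500015O10Rik, which encodes the secreted peptide augurin, was at 26.1, 49.7 and 54.5 CPM in rich and 1.24, 2.61 and 4.42 CPM in poor libraries, a log2 difference of 4.15 ± 0.16 (SE). F5, which encodes coagulation factor V, differed by 4.27 ± 0.21 (SE) and Col8a1, a short-chain collagen, by 4.22 ± 0.18 (SE). Again no rich library reached down to the poor range for any of these genes. The growth factor gene Igf2 stood at 122 to 220 CPM in rich and 23.8 to 55.2 CPM in poor libraries, and its binding protein gene Igfbp2 at 44.2 to 88.3 against 14.501 to 26.8 CPM. Sulf1, a sulfatase that trims heparan sulfate outside the cell, differed by 2.75 ± 0.14 (SE) on the log2 scale, and Pon3, a lactonase, by 2.18 ± 0.14 (SE). The smallest difference of this list was that of Ezr, which links the apical membrane to actin, at 0.40 ± 0.07 (SE), with overlapping classes.

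Transporters and channels were more uneven. Of 16 measured members 15 were higher, and the median log2 difference was 1.23 with a range from -0.03 to 5.36. The largest was that of Kcnj13 (gene 100040591, chromosome 1), an inwardly rectifying potassium channel of the apical membrane, at 24.5, 47.3 and 54.6 CPM in rich libraries. In poor libraries Kcnj13 was at 0.188, 0.881 and 4.60 CPM, and the log2 difference was 5.36 ± 0.30 (SE, edgeR adjusted p = 1.24e-10). Kcnj13 overlaps Gigyf2 on the other strand, so without knowing whether strand was used in counting their reads cannot be told apart. Its highest poor value belonged to XYF replicate 4. Aqp1, the water channel of the apical membrane, was at 14.99 to 37.8 CPM in rich and 0.126 to 10.1 CPM in poor libraries, and its highest poor value came from the same library. Trpv4, a calcium-permeable channel that senses osmotic and mechanical stimuli, was at 10.7, 14.9 and 22.1 CPM in rich and 0.879, 1.64 and 2.61 CPM in poor libraries. That is a log2 difference of 3.15 ± 0.15 (SE). Clic6, a chloride channel family gene, differed by 3.38 ± 0.27 (SE), and Slc13a4, a sulfate transporter, by 2.48 ± 0.30 (SE). Trpm3, a cation channel gene of the epithelium and of neurons, was at 142 to 249 CPM in rich and 58.6 to 90.5 CPM in poor libraries, a log2 difference of 1.31 ± 0.09 (SE). Carbonic anhydrases supply the bicarbonate that the epithelium secretes, and Car14 differed by 1.003 ± 0.10 (SE). Slc12a2, the sodium-potassium-chloride cotransporter, differed by 0.57 ± 0.06 (SE), Slc4a2, an anion exchanger, by 1.15 ± 0.08 (SE), and Slc29a4, a monoamine transporter, by 0.64 ± 0.10 (SE). Slc26a11 was the member that did not pass, at 4.92 to 7.34 CPM in rich and 4.43 to 7.81 CPM in poor libraries. Abca4, a lipid transporter, was at 18.4 to 37.3 CPM in rich libraries, while XYF replicate 4 had 63.0 CPM. Without that library the poor range of Abca4 was 1.97 to 5.15 CPM, and its log2 difference went from 2.53 ± 0.56 (SE) to 3.01 ± 0.16 (SE).

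Receptors and membrane proteins followed, with 10 of 11 measured members higher and a median log2 difference of 1.39. Folr1 (gene 14275, chromosome 7), the receptor that carries folate into the fluid, was at 20.1, 29.5 and 37.5 CPM in rich and 0.33, 1.55 and 2.94 CPM in poor libraries. The classes were far apart, with a log2 difference of 4.25 ± 0.21 (SE, edgeR adjusted p = 4.25e-12). Kl, which encodes klotho, the co-receptor of the hormone FGF23, was at 115, 149 and 194 CPM in rich and 22.02, 29.6 and 37.4 CPM in poor libraries, a log2 difference of 2.38 ± 0.12 (SE). Prlr, the prolactin receptor, was at 36.1 to 91.6 CPM against 4.01 to 9.82 CPM, and differed by 3.09 ± 0.18 (SE). Htr2c, the serotonin 2C receptor, is made by neurons as well as by the plexus, and it differed by 0.88 ± 0.09 (SE) with rich libraries at 81.6 to 121.9 CPM and poor ones at 40.1 to 66.8 CPM. Mfrp, a frizzled-related membrane protein, differed by 2.44 ± 0.12 (SE) and C1qtnf5 by 2.47 ± 0.12 (SE). These 2 genes overlap on the same strand, so their reads may not have been separable and the 2 values are not independent. Tight junctions seal the epithelium, and Cldn1, a gene of this junction, was at 6.86 to 13.8 CPM in rich and 1.44 to 7.76 CPM in poor libraries. Perp, a desmosome gene, differed by 1.39 ± 0.19 (SE), Spint2, an inhibitor of membrane serine proteases, by 0.82 ± 0.11 (SE) and Vat1l, a gene of unclear role, by 1.24 ± 0.15 (SE). The only overlap of classes for Perp came from XYF replicate 4, at 6.41 CPM against 5.88 CPM in the lowest rich library. Lrp2, the large endocytic receptor megalin, was the member that did not pass, at a log2 difference of 0.26 ± 0.25 (SE).

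**Figure D2:**
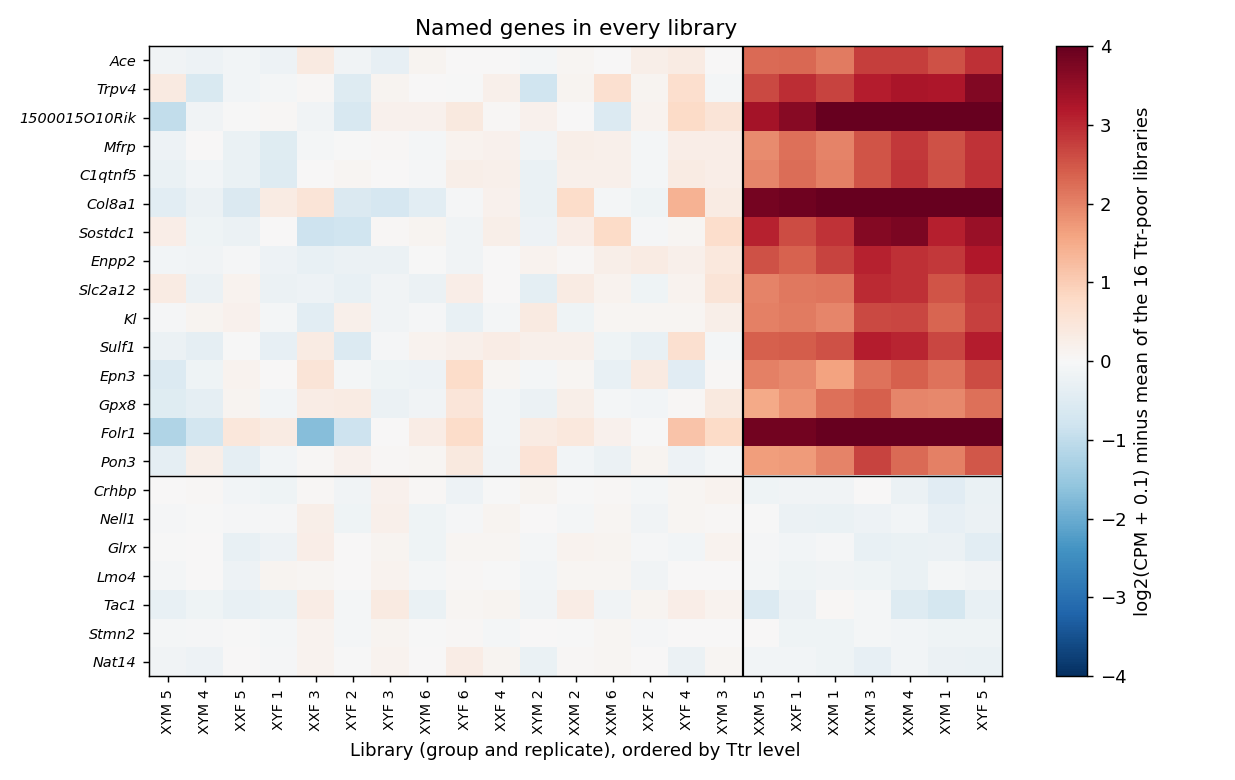
The 15 genes called higher with the smallest p and the 7 called lower (rows) in each library (columns, in order of rising Ttr), as log2(CPM + 0.1) minus the mean of the 16 poor libraries, with colours saturating at 4. Left of the vertical line are the poor and right of it the rich libraries; the 15 genes above the horizontal line are raised in all 7 rich libraries, and the 7 below it have fitted log2 differences from -0.41 to -0.16.

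Of the 15 genes with the smallest p, Slc2a12, Epn3 and Gpx8 were, like C1qtnf5, in none of the choroid lists. Slc2a12, a facilitative sugar transporter that overlaps Tbpl1 on the other strand, differed by 2.46 ± 0.14 (SE) and Epn3, an epsin of clathrin-mediated uptake, by 2.22 ± 0.15 (SE). Gpx8, a peroxidase of the endoplasmic reticulum, differed by 1.97 ± 0.13 (SE). In all, 359 of the 433 genes were in none of the lists, and the following were picked after their values were seen. Col8a2, the partner chain of Col8a1, differed by 2.53 ± 0.15 (SE), and Sema3b, a secreted semaphorin, by 2.32 ± 0.17 (SE). Col9a3, a chain of type IX collagen, differed by 2.21 ± 0.13 (SE) and Angptl2, a secreted angiopoietin-like protein, by 2.20 ± 0.15 (SE). Among signal genes, Bmp6 and Bmp7 differed by 1.05 ± 0.13 and 1.06 ± 0.17 (SE), the leptin receptor Lepr by 0.88 ± 0.10 (SE) and the urocortin receptor Crhr2 by 1.25 ± 0.17 (SE).

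Among transcription factors of the plexus and its roof-plate origin, 2 of 6 measured genes were higher, against 3.15% of all genes. Otx2 was at 7.98, 14.2 and 15.7 CPM in rich and 0.11, 1.58 and 10.3 CPM in poor libraries, a log2 difference of 2.83 ± 0.41 (SE, edgeR adjusted p = 0.000137). Its only overlap came from XYF replicate 4, and without that library the poor range was 0.11 to 2.39 CPM and the difference 3.09 ± 0.26 (SE). Msx1, a homeobox gene of the dorsal midline whose antisense gene Msx1as overlaps it, differed by 1.58 ± 0.12 (SE) with no overlap of classes, from 6.78 to 9.72 CPM against 2.05 to 3.81 CPM. Foxj1, Rfx2, Rfx3 and Otx1 did not pass, with log2 differences of 0.40, 0.43, 0.11 and -0.03.

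Genes of motile cilia, shared between choroid epithelium and the ependyma that lines the ventricles, rose in part. Of 17 measured, 6 were higher, against 3.15% of all genes, and the list's median log2 difference was 0.40. Mlf1 differed by 1.27 ± 0.18 (SE), the tektin gene Tekt1 by 0.96 ± 0.18 (SE), the sperm flagellar gene Spef2 by 0.91 ± 0.20 (SE) and Ccdc113 by 0.86 ± 0.20 (SE). Their summed level overlapped between classes, at 99.995 to 149 CPM in rich and 62.7 to 122 CPM in poor libraries.

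Fibroblast genes of leptomeninges and stroma behaved similarly, with 9 of 20 measured genes higher, against 3.15% of all genes. Their median log2 difference was 0.65. The largest was Pcolce, an enhancer of collagen processing, at 8.45, 13.6 and 17.1 CPM in rich and 2.28, 3.17 and 4.86 CPM in poor libraries, a log2 difference of 1.99 ± 0.14 (SE). Bgn, the proteoglycan biglycan, differed by 0.73 ± 0.10 (SE) and Serping1, the C1 inhibitor, by 0.61 ± 0.12 (SE). The summed list overlapped, at 280 to 500.5 CPM in rich and 225.5 to 400.0 CPM in poor libraries. In the endothelium list 1 of 14 genes was higher, against the same 3.15%, the transporter Slco1a4 at 0.32 ± 0.09 (SE). The glucose transporter gene Slc2a1 was at 82.3 to 106 CPM against 72.6 to 119 CPM. No gene of 10 in the mural list passed, and the median was 0.19.

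Of the macrophages at the brain's borders 7 list genes were measured and 4 were higher, against 3.15% of all genes. Of these 4, 3 were genes of antigen presentation on MHC class II. H2-Aa, a class II chain, was at 1.81, 4.27 and 6.31 CPM in rich and 0.314, 1.203 and 4.89 CPM in poor libraries, a log2 difference of 1.82 ± 0.31 (SE). Cd74, the invariant chain, differed by 1.07 ± 0.20 (SE), H2-Eb1 by 1.18 ± 0.26 (SE) and the scavenger receptor Cd163 by 0.81 ± 0.18 (SE). Classes overlapped for all 4. Parenchymal microglia gave no call among 14 genes, and Csf1r, the receptor microglia depend on, was at 95.4 to 113 CPM in rich and 92.8 to 122 CPM in poor libraries.

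Both classes carried the markers of hippocampal tissue. Of the lists of neurons (16 genes), astrocytes (12), oligodendrocytes (14) and dentate granule cells (12), no member was called in either direction, and their medians lay between -0.08 and 0.02. The kinase gene Camk2a of excitatory neurons was at 3567 to 3907 CPM in rich and 3209 to 4384 CPM in poor libraries, with a log2 difference of -0.08 ± 0.06 (SE). In the astrocyte glutamate transporter gene Slc1a2 the difference was -0.04 ± 0.05 (SE), in myelin gene Mbp -0.11 ± 0.08 (SE) and in C1ql3, a secreted protein of dentate granule cells whose gene overlaps Pter on the other strand, -0.07 ± 0.08 (SE). For pyramidal cells of CA1 to CA3, 2 of 16 genes were higher, against 3.15% of all genes, with a list median of -0.05. These were Map3k15 by 0.94 ± 0.15 (SE) and Coch by 0.59 ± 0.16 (SE). Coch was highest in the poor library XYF replicate 4, at 10.3 CPM, against 5.83 to 9.94 CPM in rich libraries. Map3k15 overlaps Pdha1 on the other strand, and the use of strand in counting was not given in the sources used here.

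Neighbouring regions that a dissection can include were listed as well. Of all genes, 3.15% were higher and 0.0509% lower. No gene of 13 from thalamus and habenula was higher and 1 was lower. Of 12 striatal and septal genes 1 was higher, Ppp1r1b, the dopamine-regulated phosphatase inhibitor DARPP-32, at 62.7 to 92.1 CPM in rich and 42.5 to 60.04 CPM in poor libraries. Its log2 difference was 0.58 ± 0.08 (SE), while the striatal phosphodiesterase gene Pde10a differed by -0.04 ± 0.08 (SE). Rgs9, a regulator of G protein signals abundant in striatum, was at 111 CPM in XYF replicate 4 and at 19.03 to 28.7 CPM in the other poor libraries, with 24.8 to 29.96 CPM in rich ones. In XYF replicate 4, Pde10a was at 103 CPM, Ppp1r1b at 55.5 CPM and Trpc4, of the same list, at 66.6 CPM. Each of these lay within the range of the other poor libraries. None of 12 neocortical and 7 erythroid genes passed, and the haemoglobin gene Hba-a1 was at 49.0 to 106 CPM against 41.4 to 192 CPM.

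The 7 lower genes were Crhbp, Nell1, Glrx, Lmo4, Tac1, Stmn2 and Nat14, with log2 differences between -0.41 and -0.16. Tac1, which encodes substance P, was at 6.23, 8.26 and 10.6 CPM in rich and 8.24, 10.2 and 13.1 CPM in poor libraries, a difference of -0.41 ± 0.11 (SE, edgeR adjusted p = 0.0377). Crhbp, the binding protein of corticotropin-releasing hormone, was at 28.3 to 39.0 CPM against 33.5 to 43.7 CPM, a difference of -0.25 ± 0.06 (SE). Nell1, a secreted glycoprotein, differed by -0.24 ± 0.06 (SE), Glrx, a glutaredoxin, by -0.27 ± 0.07 (SE), Lmo4, a LIM-domain transcription cofactor, by -0.17 ± 0.05 (SE) and Nat14, a putative acetyltransferase, by -0.23 ± 0.07 (SE). Stmn2, a neuronal tubulin regulator, was at 299 to 340 CPM against 320 to 373 CPM. Classes overlapped for all 7, and each lost its call under some alternative. The number of lower genes was itself unsteady, with 30 by DESeq2 and 3 with log2 Ttr as a continuous term. It was 15 without XXF replicate 5, 13 without XYF replicate 1, 12 without XXF replicate 2, 3 without XXM replicate 6, 2 without XXM replicate 4 and 1 without XYF replicate 5. Immediate early genes, which neurons switch on with activity, had negative log2 differences in 11 of 11 measured members, with a median of -0.40, and none passed. Signs leaned to one side in other lists too, with 14 of 14 negative in microglia (median -0.08) and 15 of 16 in neurons (-0.08), neither with a call, and 13 of 16 in CA1 to CA3 (-0.05). Arc was at 74.6 to 183 CPM in rich and 88.1 to 284 CPM in poor libraries, a difference of -0.62 ± 0.30 (SE, edgeR adjusted p = 0.376).

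**Figure D3:**
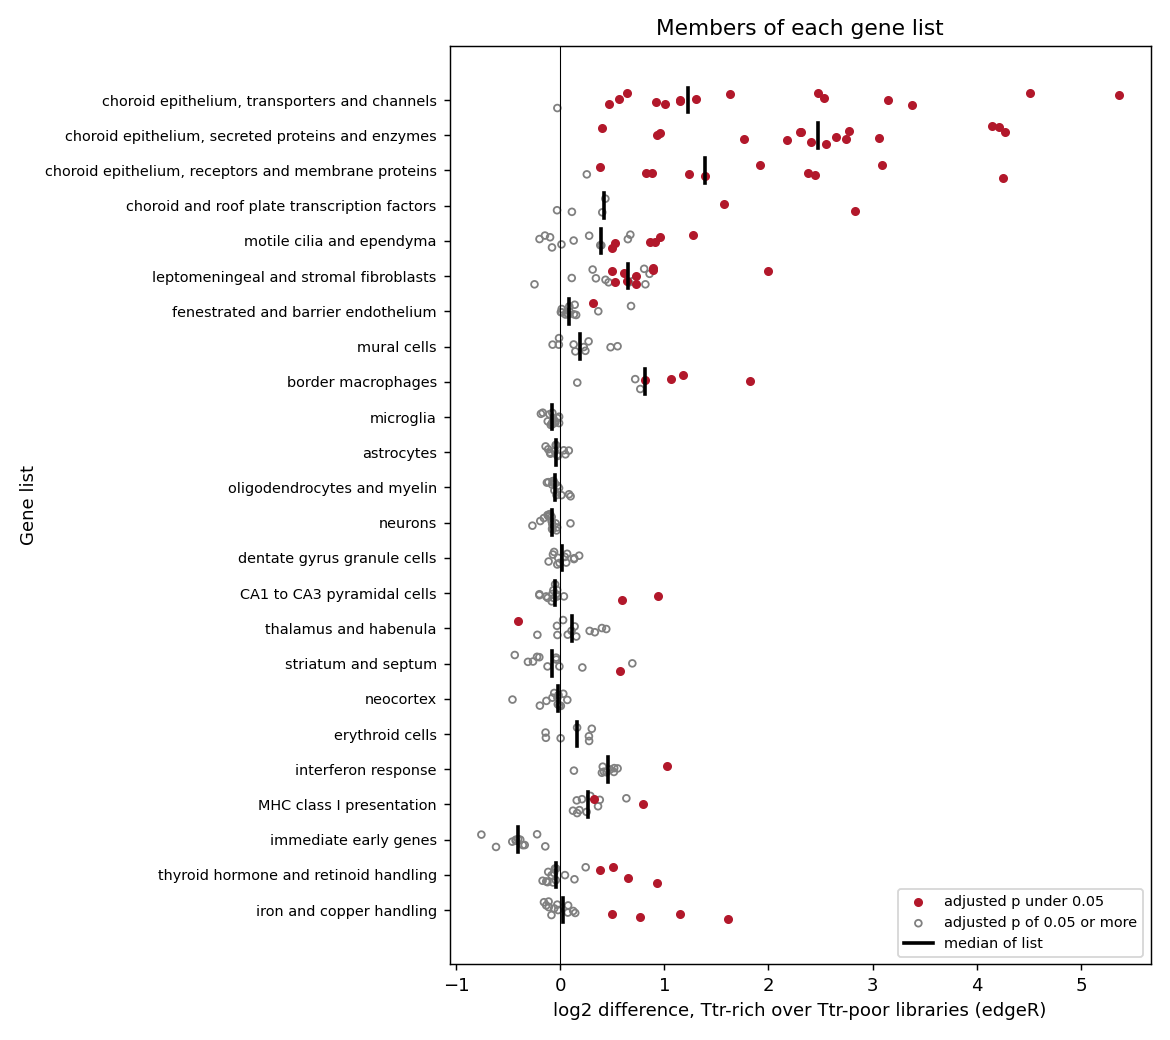
Log2 difference, rich over poor libraries, from edgeR for each measured member (points) of the 24 gene lists, filled red where the adjusted p was under 0.05 and open where it was not, with the list median as a black bar. The 3 choroid epithelium lists have medians of 1.23, 2.48 and 1.39, while those of neurons, astrocytes, oligodendrocytes and microglia lie between -0.08 and -0.04.

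Thyroid hormone and retinoid handling had 4 of 17 measured genes higher, against 3.15% of all genes, with a list median of -0.04. Slco1c1, the thyroxine transporter, was at 94.7, 107 and 129.99 CPM in rich and 62.2, 68.3 and 75.9 CPM in poor libraries, a log2 difference of 0.65 ± 0.06 (SE, edgeR adjusted p = 2.91e-09) with no overlap. Stra6, the membrane receptor for the retinol carrier of plasma, differed by 0.38 ± 0.10 (SE). In the list of iron and copper handling 4 of 16 genes were higher, also against 3.15% of all genes, with a list median of 0.03. These were Slc31a1, the copper importer, by 1.15 ± 0.08 (SE), the copper pump Atp7a by 0.77 ± 0.11 (SE) and Cp, the copper-bound ferroxidase ceruloplasmin, by 0.50 ± 0.12 (SE). The fourth, Steap2, a metalloreductase, differed by 1.61 ± 0.11 (SE). The gene Cp overlaps Hps3 on the other strand. Cp was highest in the poor library XYF replicate 4, at 33.2 CPM, against 16.6 to 30.3 CPM in rich libraries.

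The same direction appeared inside each group. Within XXM, which held 4 rich and 2 poor libraries, all 433 genes had a higher mean CPM in the rich ones. The counts were 429 in XXF, 432 in XYF and 433 in XYM, each of these with a single rich library, against 50.02% to 57.1% of all genes. Over the 43 choroid epithelium genes, the median log2 ratio of mean CPM was 1.88 in XXF, 2.07 in XXM, 2.17 in XYF and 2.21 in XYM. For Kcnj13 it was 4.29, 5.06, 5.10 and 5.91, and for Enpp2 2.35, 2.69, 3.30 and 2.76. Because the genes were called with all libraries, these directions are a description.

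Fitted separately, the comparison called 149 genes (1.08%) with ovaries, 286 (2.08%) with testes, 191 (1.39%) in XX, 234 (1.7%) in XY and 114 (0.829%) in XXM alone. Of these, 145, 268, 188, 230 and 112 were among the 433. The choroid medians were 1.89, 2.22, 2.11, 2.26 and 2.07. Ovarian and XY fits rest on 2 rich libraries each. The difference of the rich effect between gonads was tested with an interaction term. It called no gene (0%, smallest edgeR adjusted p = 0.9998, with 172 genes at an unadjusted p under 0.05), and DESeq2 called none either (183 at an unadjusted p under 0.05). The choroid median of that difference was -0.02.

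In the 7 rich libraries Enpp2 had 0.794 to 1.13 reads per Ttr read, Kl 0.0619 to 0.0913 and Kcnj13 0.0149 to 0.0248, given as values because Ttr set the classes. The reads of the 433 genes made up 1.35% to 1.77% of a rich library (median 1.57%) and 0.903% to 1.05% of a poor one (median 0.934%). Ttr itself took 0.165% to 0.296% and 0.00191% to 0.0150%.

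Ttr also varied within the poor class, and genes were set against log2 Ttr in those 16 libraries alone. The same Ttr values had placed these libraries in the class, so the slopes are a description and support nothing. With edgeR no gene was called (0%), and 682 had an unadjusted p under 0.05. Slopes, as log2 change per doubling of Ttr, were positive in 33 of 43 choroid epithelium genes, against 51.2% of all genes, and their median was 0.11. Enpp2 had a slope of 0.20 ± 0.04 (SE), Clic6 of 0.63 ± 0.13 (SE), F5 of 0.49 ± 0.11 (SE) and Kcnj13 of 0.98 ± 0.19 (SE). Leaving out XYF replicate 4 gave 30 of 43 positive slopes, a median of 0.08, a Kcnj13 slope of 0.65 and an Enpp2 slope of 0.19, with no gene called by edgeR and 840 at an unadjusted p under 0.05.

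XYF replicate 4 was the poor library with the highest level of several genes of the choroid lists, Otx2, Aqp1, Abca4 and Kcnj13 among them. Its summed choroid epithelium level of 1252 CPM was the highest of the poor libraries and below the 3231 CPM of the lowest rich one. XYM replicate 3 had a like Ttr level (149.9 against 148.7 CPM) but 4.55 CPM of Abca4, 2.39 of Otx2 and 1.04 of Aqp1. XYF replicate 4 had 63.0, 10.3 and 10.1 CPM of these. Enpp2 went the other way, at 358 CPM in XYM replicate 3 and 311 CPM in XYF replicate 4. The source of these levels was not tested. Without XYF replicate 4, 488 genes were called (3.55%), including 431 of the 433. The classes did not overlap in 37 of the 43 choroid genes, against 35 of 43 with all libraries. With all libraries 0.915% of all genes had every rich library above every poor one. The share of all genes without XYF replicate 4 was not computed. Leaving out a poor library can only keep or raise such counts, so the 37 has no matching share. The 41 choroid calls were kept in number, and the median log2 difference was 2.16.

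Rich libraries were spread unevenly over the groups, so the study's own comparisons were set beside themselves with and without a term for rich or poor. For gonad (testes minus ovaries, averaged over sex chromosomes), the median log2 difference of the 43 choroid genes was 0.44 without the term and -0.03 with it. For sex chromosomes (XY minus XX, averaged over gonads) it was -0.39 without and 0.05 with the term. The largest shifts were in comparisons with XXM. The choroid median of XXM minus XXF went from 0.995 to 0.09 and that of XYM minus XXM from -0.996 to -0.03, while XYM minus XYF stayed at -0.11 and -0.12 and XYF minus XXF at 0.13 and 0.12. No choroid epithelium gene was called in any of these comparisons, with or without the term. All of them share libraries. The term is the Ttr class, and 41 of the 43 genes were called for it in the same fit. Shifts of the choroid median therefore follow from the term and are given as values only.

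**Figure D4:**
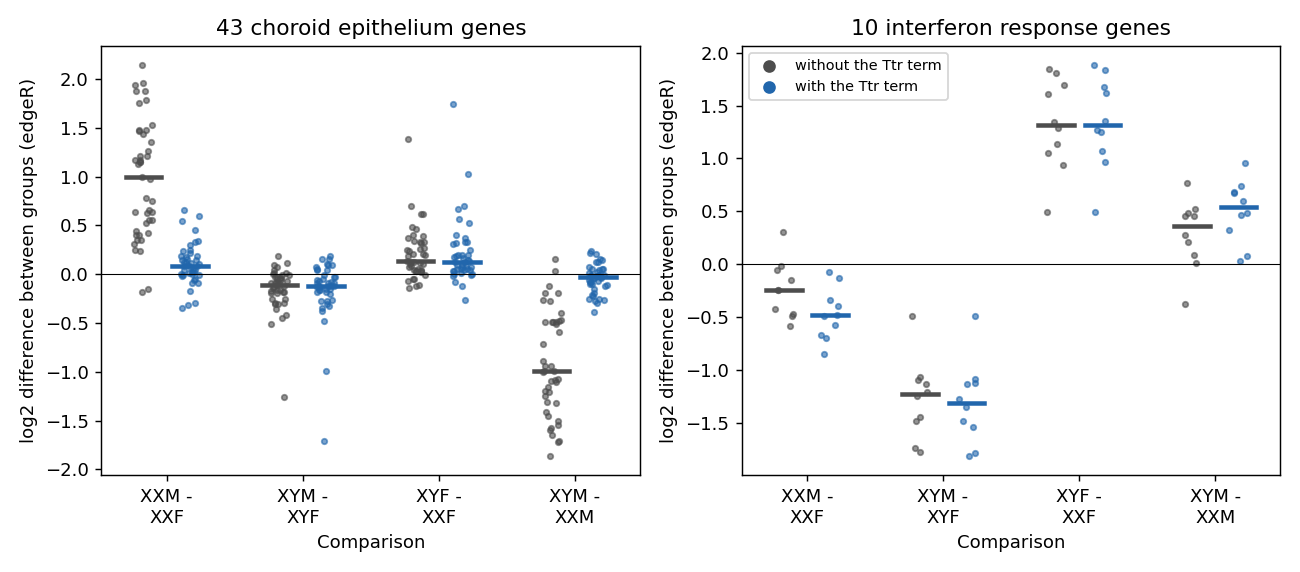
Log2 difference between groups from edgeR for each of 43 choroid epithelium genes (left) and 10 interferon response genes (right), in 4 pairwise comparisons, without (grey) and with (blue) a term for rich or poor libraries; bars are medians. The choroid median moves from 0.995 to 0.09 in XXM minus XXF and from -0.996 to -0.03 in XYM minus XXM. The choroid genes vary with the Ttr class, so this shift follows from the term.

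The number of genes called for gonad was 23 (0.167%) without the term and 37 (0.269%) with it. Shared by both fits were 21 genes, 16 were called only with the term, and 2 (Atp5e and Pcdha1) only without. The count with the term was 79 when XXF replicate 5 was left out, and 99 with DESeq2. Of the 16, 7 were in the interferon or MHC class I lists, which hold 10 and 12 measured genes. The fit without the term had already called 6 and 4 genes of these lists among its 23. In addition, 8 of the 16 were also higher in rich libraries, against 3.15% of all genes. Calls gained by adding the class favour genes that vary with it, so that count is a description. Tgtp1, an interferon-induced GTPase with a near-identical relative, shows the pattern. In poor libraries it was at 2.10 CPM in XXF, 0.822 in XXM, 2.80 in XYF and 1.11 in XYM (means of 4, 2, 5 and 5 libraries). Rich libraries had 4.15, 4.18, 11.1 and 5.12 CPM, with 4 libraries in XXM and 1 in each other group. Tgtp1 was thus higher in rich libraries within each group and lower with testes within the poor class. Its gonad difference was -0.44 ± 0.40 without and -1.03 ± 0.16 (SE) with the term (edgeR adjusted p = 0.658 and 0.000649). Lgals3bp, a secreted glycoprotein induced by interferon, went from -0.17 ± 0.21 to -0.44 ± 0.08 (SE). Bst2, the antiviral protein tetherin, went from -0.46 ± 0.23 to -0.74 ± 0.14 (SE), and Nlrc5, the activator of MHC class I genes, from -0.79 ± 0.19 to -0.99 ± 0.15 (SE).

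Sex chromosome calls were 38 (0.276%) without and 63 (0.458%) with the term, of which 37 were shared, 26 were called only with it and 1 (Nptx2) only without. Of the 26 called only with the term, 8 were also higher in rich libraries, Lgals3bp, Ifi27l1 and H2-K1 among them, against 3.15% of all genes. As for gonad, gained calls favour genes that vary with the class, so that count is a description. Lgals3bp went from 0.52 ± 0.21 to 0.74 ± 0.08 (SE) and Ifi27l1, an interferon-responsive gene, from 0.31 ± 0.13 to 0.45 ± 0.06 (SE). The class I gene H2-K1 went from 0.39 ± 0.10 to 0.47 ± 0.08 (SE). For Fcrls, a microglial surface gene, the difference was -0.30 ± 0.07 and -0.33 ± 0.07 (SE). Among the 16 poor libraries alone 18 genes were called for gonad (0.131%), 17 of them also called with the term, and 26 for sex chromosomes (0.189%), all 26 among the 63. In the pairwise comparisons, calls went from 27 (0.196%) to 41 (0.298%) in XYM minus XYF, from 42 (0.305%) to 58 (0.421%) in XYF minus XXF, and from 16 (0.116%) to 18 (0.131%) in XYM minus XXM. XXM minus XXF had no edgeR call either way (0%), with 1034 genes at an unadjusted p under 0.05 without and 794 with the term.

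By Ttr class, 1 of 10 measured interferon response genes was higher, Bst2, with a median log2 difference of 0.46 for the list. Of 12 MHC class I genes 2 were higher, Nlrc5 by 0.80 ± 0.17 (SE) and H2-K1 by 0.33 ± 0.09 (SE). Of all genes, 3.15% were higher. Bst2 was at 3.97, 5.58 and 10.4 CPM in rich and 1.77, 3.06 and 8.24 CPM in poor libraries, with poor XYF libraries at 5.56 to 8.24 CPM and other poor libraries at most 3.64 CPM. Its log2 difference with groups as covariate was 1.02 ± 0.16 (SE, edgeR adjusted p = 4.08e-05). The interferon list median went from -0.80 to -0.93 for gonad and from 0.89 to 1.01 for sex chromosomes when the term was added. These are averages of unequal parts. With the term, the median was -1.32 in XYM minus XYF and -0.49 in XXM minus XXF. It was 1.31 in XYF minus XXF and 0.54 in XYM minus XXM.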

How the data were processed

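Total RNA of 23 mouse hippocampi was rRNA-depleted and read as strand-specific libraries from 500 ng of RNA, per the labels' protocols. The authors deposited estimated counts per gene, called raw per the file headers, which were rounded to whole numbers. They also deposited normalized log2 values, used in 1 alternative. The build was mm10 and DESeq was among the tools, per the submitters' processing notes. The aligner, the counter and their use of strand: not given in the sources used here. Per the file headers, and as checked in the counts, a gene is listed if some group has 20 or more counts in 100% of its libraries.

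CPM, counts per 1000000, uses the library's total over listed genes. edgeR (4.0.16, R 4.3.3) fitted 4 group means and a rich term, with TMM scaling and robust quasi-likelihood, and p was Benjamini-Hochberg adjusted over 13766 genes at 0.05, 2-sided. SE is the log2 difference divided by the root of F. Ttr was left out of counts of called genes. The members, the 24 lists and the tests were chosen with earlier results of these data known. Named genes were the 15 higher and up to 10 lower with the smallest p, up to 8 members of each choroid list and 4 of other lists, and up to 5 autosomal genes per direction whose gonad or sex chromosome call changed with the rich term. Igf2, Igfbp2, Ezr, Aqp1, Abca4, Slc13a4, Slc29a4, Slc26a11, Cldn1 and Lrp2 were named after their values were seen. The single-gene values of some list members are not reported here. Alternatives used DESeq2 (1.42.0), limma (3.58.1), other scalings, filters and covariates, and each library left out in turn. The scripts were tested on simulated data. Replicate numbers follow accession order and only name libraries.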

Additional observations from a re-analysis of the deposited data

Results flagged for a closer look

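In 3 groups the single rich library lay farther from the others than a gap-over-range rule allows, for the summed level of the 43 choroid epithelium genes without Ttr. XXF replicate 1 had 3231 CPM against 952 to 1062 CPM in the other XXF libraries. XYF replicate 5 had 5112 CPM (5111.5) against 908 to 1252 CPM, and XYM replicate 1 had 4144 CPM against 947 to 1153 CPM. Chance marks about 1 in 20 groups by this rule. Here the libraries had been chosen by Ttr, so the distance follows the choice and is given as values only.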

How the results depend on the processing

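The 440 calls of the rich against poor comparison were 522 with DESeq2, 493 with limma voom, 398 with limma on the deposited log2 values, 441 with median-ratio size factors, 463 with log2 Ttr as a continuous term and 468 without the group covariate. Of these, genes lower in rich libraries numbered 30 with DESeq2, 9 with limma voom, 7 with limma on log2 values, 8 with median-ratio size factors, 3 with continuous Ttr and 11 without the covariate, against 7 as reported. Leaving out 1 library gave 295 to 488 calls, the fewest without XYF replicate 5. Fits within parts of the design gave 149 with ovaries, 286 with testes, 191 in XX, 234 in XY and 114 in XXM alone. The 16 poor libraries alone, with log2 Ttr as a continuous term, gave 0 calls, also without XYF replicate 4. All fits of poor libraries alone, the XXM fit and the fits of pairwise comparisons were chosen after seeing the data.

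The gonad calls went from 37 to 23 without the rich term, 99 with DESeq2, 18 in poor libraries alone and 79 without XXF replicate 5, and lay between 28 and 79 with 1 library left out. Sex chromosome calls went from 63 to 38 without the rich term and 26 in poor libraries alone, and lay between 45 and 80 with 1 library left out. XYM minus XYF went from 41 to 27 without the term. The interaction by gonad stayed at 0 to 0 calls with any 1 library left out. Over 660 settings of the 22 genes named by smallest p, 606 kept their call and 54 lost it, all 54 among the 7 lower genes, and none changed sign. The cause of these changes was not tested.

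No paired analysis was possible because the labels number animals and not replicates. With 1 rich library in 3 of 4 groups, the rich effect within those groups has no spread of its own. The classes follow Ttr, and what made them differ was not tested.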
